A study of Mus musculus with 6 samples.

Results

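RNA levels of 10 genes of iron uptake, storage and export were followed in cultured mouse microglia, the resident macrophages of the brain. The genes were those of the transferrin receptor, the ferritin chains, the iron transporters with their partner enzymes, and the iron regulatory proteins, and they were found by gene symbol. All 10 were among the 41079 genes in the deposited tables and among the 14618 genes with enough counts to be tested.

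The cells came from brains of C57Bl/6N mice 1-3 days old. Mixed brain cultures were stimulated repeatedly with 20% conditioned medium of L-929 cells, a fibroblast line that secretes macrophage growth factor, and microglia were loosened by 5.5 h of shaking (70 rpm) and collected from the supernatant. The 3 control libraries were from cells in serum-free DMEM/F12 medium. The 3 optimized libraries were from cells in the same medium with human TGF-β, human IL-34 and CX3CL1 at 100 ng/mL each according to the labels, to which the study's methods add cholesterol, an insulin-transferrin-selenium supplement and a collagen IV coating. All of these were changed together, so their effects cannot be told apart. The supplement contains transferrin, the protein that carries iron to cells. The control medium was not given this supplement, and no iron was measured in either medium. Per the study's methods, the mixed cultures were kept in medium with serum. Cells of every condition also adhered briefly in such medium before it was replaced.

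Library totals were between 20628148 and 27261839 counts. All 7 microglial markers examined were detected, and their summed level was 5879.5 to 5978 CPM, the counts scaled to a common library size, in control and 10323 to 12029 CPM in optimized libraries. The summed levels of the other marker lists were 2.05 to 4.26 CPM for neurons, 10.8 to 25.0 for astrocytes, 125 to 190 for oligodendrocytes and 6.60 to 14.4 for choroid plexus. Fibroblast and pericyte markers summed to 27.3 to 38.98 CPM in control and 23.5 to 121 CPM in optimized libraries, where library 3 stood apart with 1488 counts of *Col3a1*. Endothelial markers summed to 77.5 to 93.1 CPM in control and 270 to 348 CPM in optimized libraries, nearly all of it *Flt1*. In RNA from whole cultures, fewer cells of a type and less RNA per cell cannot be told apart. The labels do not say that the libraries of a condition came from separate cell preparations, whereas the study calls them biological replicates, so p-values measure the spread between these samples.

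Iron enters cells mainly as transferrin-bound iron through the transferrin receptor, is reduced in the endosome, and is moved into the cytosol by a divalent metal transporter. Iron that is not used is stored inside ferritin, a shell of heavy and light chains, or leaves through ferroportin, the only iron exporter known in mammals. Macrophages, microglia among them, also recover iron from engulfed cells. Cells adjust these steps largely after transcription, through iron regulatory proteins that bind a stem-loop in the mRNA, the iron responsive element. Bound in the 5′ untranslated region (UTR) the protein blocks translation, and bound in the 3′ UTR it protects the mRNA from decay. RNA levels therefore do not give protein levels for these genes.

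The stem-loops were searched for in the GENCODE M39 transcripts of the 10 genes (build GRCm39) by a fixed pattern of letters. Elements of another form would be missed, so the search does not separate mRNAs that iron regulatory proteins bind from others. The search asked for an unpaired C, 5 letters, the loop CAGTGN and 5 letters that pair with the first 5, read on the transcript's strand only. The 4 genes in which it was found, *Tfrc*, *Fth1*, *Ftl1* and *Slc40a1*, are those listed here, with the 6 letters of the loop in capitals. In each case the match was in the canonical transcript. *Tfrc* held it 4 times in its 3′ UTR, on the plus strand at chr16:32450036-32450065, chr16:32450415-32450444, chr16:32450480-32450509 and chr16:32450527-32450556. The 5′ UTR matches were on the plus strand at chr19:9960095-9960124 in *Fth1*, and on the minus strand at chr7:45109203-45109232 in *Ftl1* and chr1:45964625-45964654 in *Slc40a1*.
Tfrc, 1st stem-loop: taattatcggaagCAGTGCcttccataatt
Tfrc, 2nd stem-loop: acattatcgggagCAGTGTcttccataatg
Tfrc, 3rd stem-loop: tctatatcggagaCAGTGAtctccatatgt
Tfrc, 4th stem-loop: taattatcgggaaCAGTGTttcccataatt
Fth1: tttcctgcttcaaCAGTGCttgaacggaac
Ftl1: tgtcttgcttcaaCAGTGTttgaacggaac
Slc40a1: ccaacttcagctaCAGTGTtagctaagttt

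The same motif was in a 5′ UTR of 24 of 20686 genes with one (0.116%) and in a 3′ UTR of 124 of 20705 genes (0.599%). No match was found in the UTRs of *Slc11a2*, *Steap3*, *Cp*, *Slc11a1*, *Aco1* and *Ireb2*, which says only that these letters are not in these windows.

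Under optimized conditions 7 of the 10 iron genes were lower, none was higher, and 3 did not pass the test (edgeR's quasi-likelihood test, adjusted p-value under 0.05). Among all 14618 genes tested, 15.2% were lower and 14.7% higher. The median log2 fold change (optimized over control) was -0.65 for the 10 genes and 0.0079 for all genes. In the same 7 genes every optimized library was below every control library, which was so for 22.5% of all genes tested. The change was largest in the exporter ferroportin and its partner enzyme ceruloplasmin, and the genes not called were *Ftl1*, *Ireb2* and *Steap3*.

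**Figure D1:**
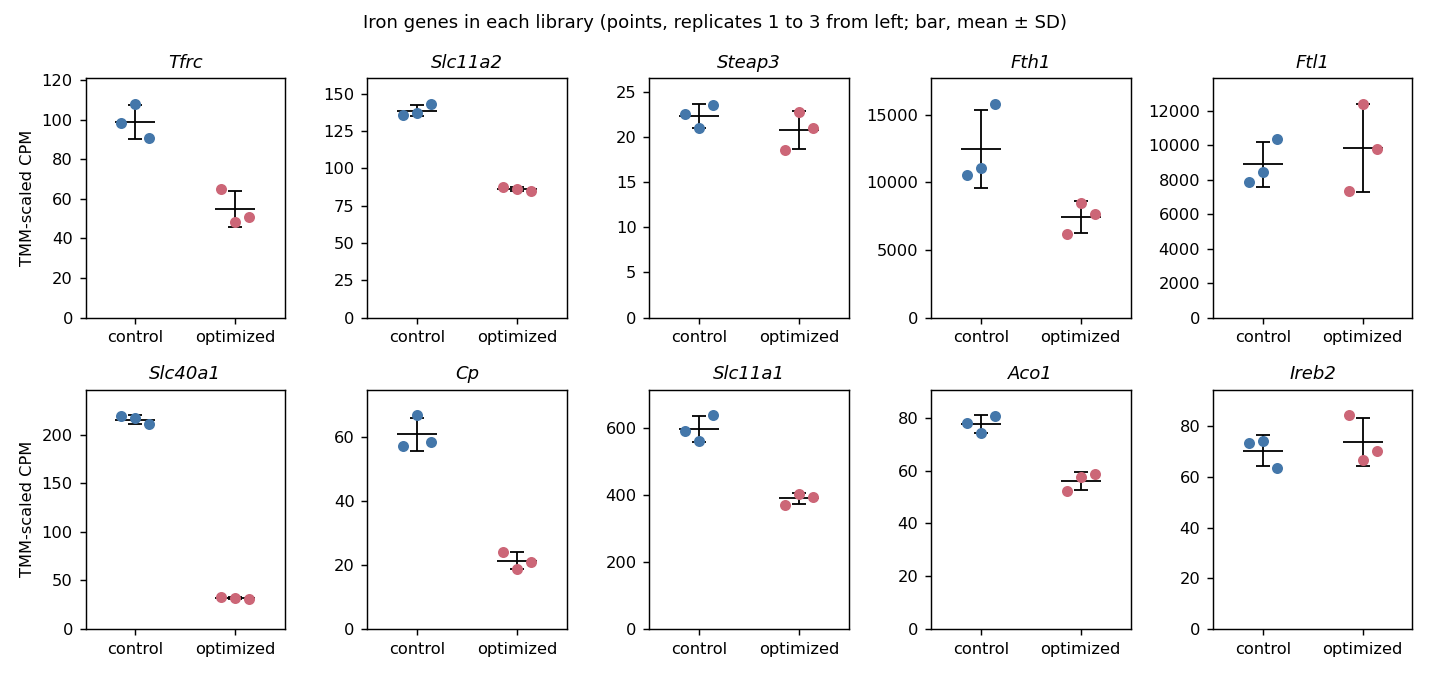
Level of each of the 10 iron genes in the 6 libraries, in TMM-scaled CPM on axes that start at 0. Points are libraries, replicates 1 to 3 from left to right, horizontal bars are means and whiskers SD (n = 3). Control and optimized points are apart in 7 panels and overlap in *Steap3*, *Ftl1* and *Ireb2*.

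The uptake genes included 2 that fell. *Tfrc* (chr16:32427556-32451612) encodes the transferrin receptor, which brings iron-loaded transferrin into the cell. It was at 98.4, 108 and 90.6 CPM in control libraries 1, 2 and 3 and at 65.1, 48.2 and 50.9 CPM in optimized libraries 1, 2 and 3. All optimized values were under the lowest control value, although optimized library 1 stood above the other two. The log2 fold change was -0.85 (SE 0.12, 95% interval -1.13 to -0.58), which is 1.81-fold lower (edgeR adjusted p-value 5.36e-04).

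*Slc11a2* (chr15:100285776-100322953) encodes the divalent metal transporter DMT1, which moves iron out of the endosome. Its levels were 136, 137 and 143 CPM in control and 87.8, 85.9 and 84.9 CPM in optimized libraries. Libraries of a condition were close together and the conditions did not overlap. This was a log2 fold change of -0.69 (SE 0.076), 1.61-fold lower, with an edgeR adjusted p-value of 9.02e-05. The exons share 927 bases with the opposite-strand gene *Gm5475*, which had at most 3 counts in any library.

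*Steap3* (chr1:120118487-120200435) encodes an endosomal ferric reductase, which prepares iron for DMT1. It had 22.6, 21.0 and 23.5 CPM in control and 18.6, 22.8 and 21.0 CPM in optimized libraries. The conditions overlapped, with a log2 fold change of -0.10 (95% interval -0.34 to 0.14) and an edgeR adjusted p-value of 0.531. A fall of the size seen in *Tfrc* or *Slc11a2* lies outside this interval. Of the 3 uptake genes, *Steap3* was the one with the lowest FPKM in both conditions.

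The ferritin genes were by far the most abundant of the 10. *Ftl1* (chr7:45107367-45109308) encodes the light chain, which helps iron to mineralise in the shell, and *Fth1* (chr19:9957911-9962462) the heavy chain, which oxidises iron as it enters. On the FPKM scale, which is per length, *Ftl1* ranked 4 and *Fth1* 5 of the 41079 genes in control libraries, and 5 and 9 in optimized libraries. The order of the chains in control depends on the lengths used for FPKM. Both genes together took 1.97%, 2.07% and 2.62% of all counts in control libraries and 1.38%, 1.87% and 1.66% in optimized libraries. No optimized share reached the lowest control share.

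*Fth1* was at 10578, 11043 and 15792 CPM in control and at 6168, 8510 and 7683 CPM in optimized libraries. Control library 3 was far above the other control libraries, and the conditions still did not overlap. The edgeR fit gave a log2 fold change of -0.74 (SE 0.18, 95% interval -1.15 to -0.33), 1.67-fold lower, with an edgeR adjusted p-value of 0.0124. Leaving out control library 3 gave -0.54 with an adjusted p-value of 0.0342, and the highest adjusted p-value over 15 alternatives was 0.0412.

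*Ftl1* was at 7863, 8427 and 10341 CPM in control and at 7336, 12382 and 9780.2 CPM in optimized libraries. The optimized values lay on both sides of the control values. The log2 fold change was 0.15 (95% interval -0.28 to 0.58), with an edgeR adjusted p-value of 0.624, and it turned to -0.064 without optimized library 2. Ferritin genes have many processed copies in the genome, and how reads that match several places were counted is not given in the sources used here. The levels of both ferritin genes are therefore uncertain to that extent.

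The chains were also compared within each library, which takes out the scaling between libraries. The ratio of *Fth1* to *Ftl1* in FPKM was 0.864, 0.841 and 0.980 in control and 0.540, 0.441 and 0.504 in optimized libraries. Every optimized ratio was under every control ratio, and the means were 0.895 ± 0.0747 and 0.495 ± 0.050 (SD, n = 3). The difference was -0.86 on the log2 scale (1.81-fold), with a two-sided exact permutation p-value of 0.1, which is the smallest that 3 libraries against 3 allow. In all 6 libraries the heavy chain was below the light chain in FPKM.

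The export genes showed the largest falls. *Slc40a1* (chr1:45947211-45965683) encodes ferroportin. It was at 219, 217 and 211 CPM in control and at 33.3, 31.8 and 31.1 CPM in optimized libraries, from 5008, 5331 and 5758 counts and from 703, 746 and 642 counts. The libraries of each condition differed little beside the gap between conditions. This made a log2 fold change of -2.75 (SE 0.082, 95% interval -2.94 to -2.57), 6.73-fold lower, with an edgeR adjusted p-value of 4.02e-08. In FPKM it went from 62.9 ± 3.52 to 8.48 ± 0.563 (SD, n = 3), and its rank among all genes from 915 to 5202.

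*Cp* (chr3:20011090-20063930) encodes ceruloplasmin, a copper enzyme that oxidises iron so that transferrin can bind it. It was at 57.2, 66.8 and 58.6 CPM in control and at 24.1, 18.7 and 21.1 CPM in optimized libraries. The conditions were well apart, with a log2 fold change of -1.52 (SE 0.12), 2.86-fold lower, and an edgeR adjusted p-value of 6.98e-06. In the brain ceruloplasmin is best known from astrocytes. All 4 astrocyte markers were detected, with a sum of 22.2 to 25.0 CPM in control and 10.8 to 12.4 CPM in optimized libraries. Of the 4 markers 1 was lower, *Aldh1l1* (log2 fold change -1.83), which made up most of the sum in control. The other markers, *Gfap* (0.16), *Aqp4* (-0.20) and *Slc1a2* (-0.59), did not pass the edgeR test, with adjusted p-values of 0.590, 0.683 and 0.192. The part of astrocyte RNA in the fall of *Cp* was not tested. *Cp* also shares 108 exon bases with *Hps3* on the other strand, which had 991 to 1463 counts per library and a log2 fold change of -0.13 (edgeR adjusted p-value 0.376).

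Export was then set against the heavy chain of storage within each library. The ratio of *Slc40a1* to *Fth1* in FPKM was 0.00897, 0.00853 and 0.00578 in control and 0.00234, 0.00162 and 0.00175 in optimized libraries. The conditions did not overlap, and the difference was -2.02 on the log2 scale, 4.06-fold lower, with an exact permutation p-value of 0.1, again the smallest possible. The ratio of *Tfrc* to *Fth1* set uptake against the same chain. It was 0.00273, 0.00287 and 0.00168 in control and 0.00310, 0.00166 and 0.00195 in optimized libraries. Here the conditions overlapped, with a difference of -0.13 on the log2 scale and an exact permutation p-value of 0.9. This holds for the heavy chain, which itself fell. *Tfrc* was not set against *Ftl1*, and their log2 fold changes were -0.85 and 0.15.

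**Figure D2:**
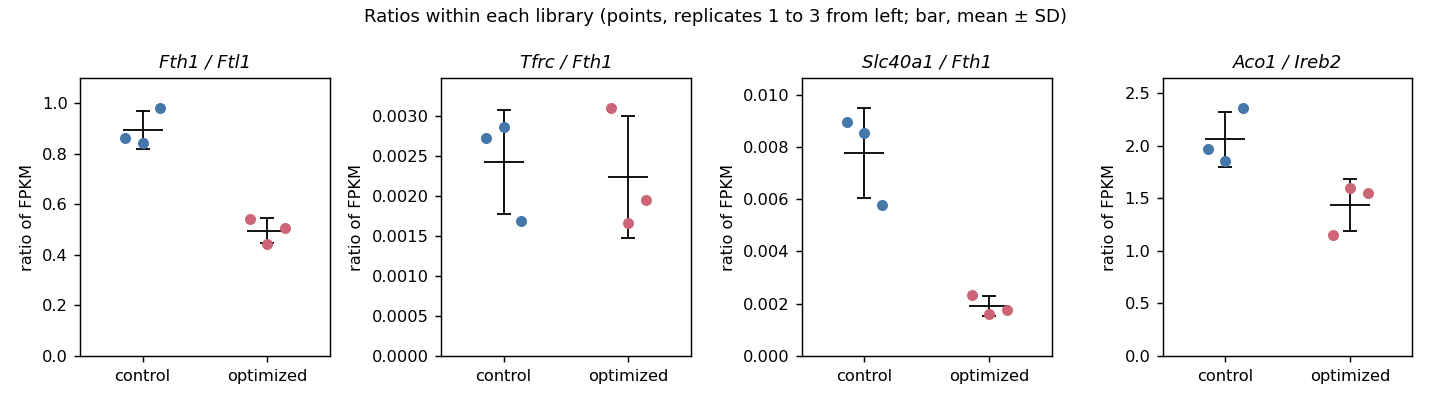
Ratio of the FPKM of the named genes within each library, on axes that start at 0. Points are libraries, replicates 1 to 3 from left to right, bars are means and whiskers SD (n = 3). The conditions are apart for *Fth1* to *Ftl1*, *Slc40a1* to *Fth1* and *Aco1* to *Ireb2*, and overlap for *Tfrc* to *Fth1*.

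*Slc11a1* (chr1:74414303-74425448) encodes NRAMP1, a relative of DMT1. Where functional, NRAMP1 sits in the phagosome membrane of macrophages and removes iron and other metals from engulfed material. Whether the protein is functional in the mouse strain used here was not tested, so the RNA level does not give metal transport. *Slc11a1* was at 589, 561 and 637 CPM in control and at 371, 402 and 395 CPM in optimized libraries. The conditions did not overlap, with a log2 fold change of -0.61 (SE 0.090, 95% interval -0.81 to -0.41), 1.53-fold lower, and an edgeR adjusted p-value of 5.47e-04. With 140 ± 4.38 FPKM in control and 83.4 ± 2.10 FPKM in optimized libraries (SD, n = 3), it came next after the ferritin genes in both conditions.

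The iron regulatory proteins are the sensors that bind the stem-loops printed above. *Aco1* (chr4:40142998-40199010) encodes IRP1, which serves as the cytosolic aconitase when it holds an iron-sulfur cluster. It was at 78.1, 74.2 and 80.7 CPM in control and at 52.3, 57.5 and 58.7 CPM in optimized libraries. No optimized library reached the lowest control library. The log2 difference was -0.47 (SE 0.085, 95% interval -0.66 to -0.28), 1.38-fold lower, with an edgeR adjusted p-value of 0.00213, the smallest change of the 7 that were called.

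*Ireb2* (chr9:54770970-54820011) encodes IRP2, which is degraded in iron-replete cells. It was at 73.5, 74.4 and 63.5 CPM in control and at 84.4, 66.7 and 70.4 CPM in optimized libraries. The values overlapped, with a log2 fold change of 0.07 (95% interval -0.18 to 0.31) and an edgeR adjusted p-value of 0.706. Its direction was not stable, since scaling by library size alone gave -0.057. The ratio of *Aco1* to *Ireb2* in FPKM was 1.97, 1.86 and 2.36 in control and 1.15, 1.60 and 1.55 in optimized libraries. Every optimized ratio was lower than every control ratio, by 0.53 on the log2 scale (1.45-fold), with an exact permutation p-value of 0.1.

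In order of mean FPKM, the control libraries had *Ftl1* (9267), *Fth1* (8340.1), *Slc11a1* (140), *Slc40a1* (62.9), *Slc11a2* (22.4), *Tfrc* (19.6), *Aco1* (17.3), *Ireb2* (8.48), *Cp* (8.29) and *Steap3* (6.84). Neighbours whose libraries overlapped in this order were *Ftl1* and *Fth1*, *Tfrc* and *Aco1*, and *Ireb2* and *Cp*. The order between genes depends on the lengths used for FPKM, and by raw counts *Fth1* was above *Ftl1* in every control library. In the optimized libraries the order was *Ftl1* (9289), *Fth1* (4534), *Slc11a1* (83.4), *Slc11a2* (12.7), *Aco1* (11.4), *Tfrc* (9.85), *Slc40a1* (8.48), *Ireb2* (8.07), *Steap3* (5.77) and *Cp* (2.64). There each of *Slc11a2*, *Aco1*, *Tfrc* and *Slc40a1* overlapped with the gene after it, whereas the ferritin chains no longer did. Ferroportin thus moved from the fourth to the seventh place and ceruloplasmin to the last.

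With regard to the stem-loops, the 4 genes in which the searched motif was found did not share a response. *Tfrc*, with the 3′ motif, and *Fth1* and *Slc40a1*, with the 5′ motif, were lower, while *Ftl1*, whose 5 paired letters on each side of the loop are the same as those of *Fth1*, did not pass the test. Among the 6 genes in which no motif was found, 4 were lower. Elements of another form would have been missed in these 6, so they are not a group known to lack such elements.

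A wider list of 42 iron and heme genes was examined beside the 10, of which 32 could be tested. In this list 7 were higher, 6 were lower and 19 did not pass the test, with a median log2 fold change of -0.05. Over all genes tested 14.7% were higher and 15.2% lower. The split of these calls depended on the scaling: with library size alone 4 were higher and 11 lower. The 7 lower calls among the 10 iron genes were found under all 15 alternatives.

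**Figure D3:**
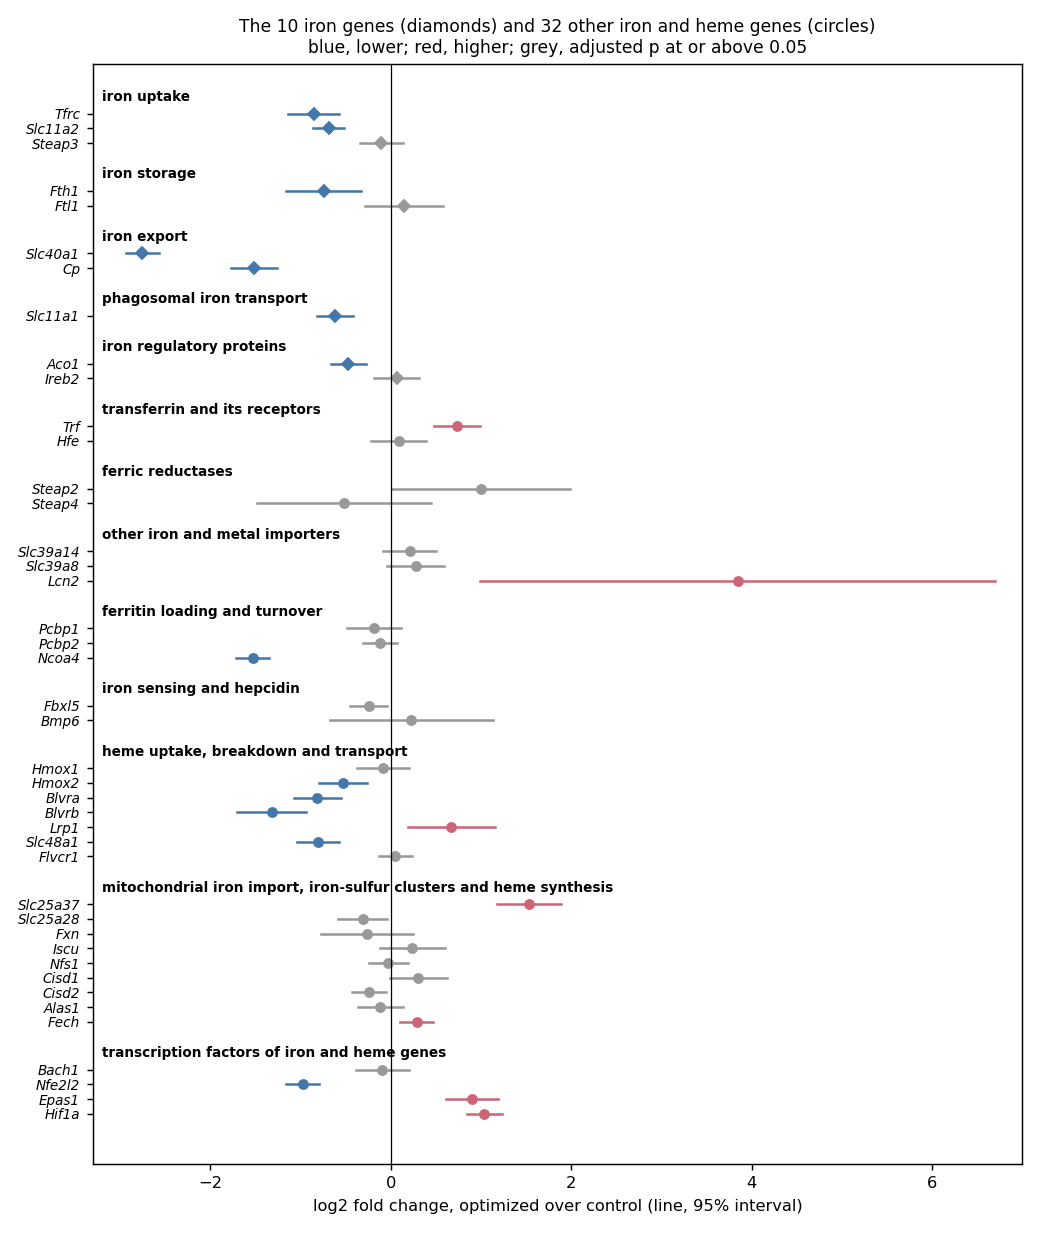
Log2 fold change, optimized over control, with its 95% interval, for the 10 iron genes (diamonds) and the 32 tested genes of the wider list (circles), by role. Blue marks genes that were lower, red genes that were higher, and grey an adjusted p-value at or above 0.05 (edgeR). *Slc40a1* lies farthest to the left, and *Lcn2*, with the widest interval, farthest to the right.

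Transferrin itself, encoded by *Trf*, rose while its receptor fell. *Trf* was at 1632, 1662 and 1707 CPM in control and at 2419, 2997 and 2926 CPM in optimized libraries, without overlap. Its log2 fold change was 0.74 (SE 0.11), with an edgeR adjusted p-value of 7.33e-04. Oligodendrocytes also make transferrin, and the sum of their 5 markers was 125 to 140 CPM in control and 156 to 190 CPM in optimized libraries, most of it *Mbp*. Of the 5 markers 1 was higher, *Mbp* (log2 fold change 0.34, edgeR adjusted p-value 0.0233), and 4 did not pass the test. The part of oligodendrocyte RNA in the rise of *Trf* was not tested. *Tfr2*, the second transferrin receptor, had 0, 0 and 1 counts in control and 3, 18 and 16 counts in optimized libraries and was not tested. *Hfe*, a partner of the transferrin receptor, had a log2 fold change of 0.09 (edgeR adjusted p-value 0.683).

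*Ncoa4*, whose product carries ferritin to the lysosome for iron release, was lower together with the heavy chain. It was at 304, 331 and 306 CPM in control and at 107, 107 and 113 CPM in optimized libraries. The log2 fold change was -1.53 (SE 0.083), with an edgeR adjusted p-value of 8.34e-07. The iron chaperones that load ferritin, *Pcbp1* (-0.19) and *Pcbp2* (-0.12), did not pass the edgeR test, with adjusted p-values of 0.344 and 0.325. *Fbxl5*, which marks IRP2 for degradation when iron is present, had a log2 fold change of -0.24 (edgeR adjusted p-value 0.0696).

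Of the 7 tested heme genes 4 were lower and 1 was higher, beside 15.2% and 14.7% of all genes tested. *Blvrb* (log2 fold change -1.32) and *Blvra* (-0.81) encode biliverdin reductases, which act after heme has been opened. *Slc48a1* (-0.80) encodes a heme transporter of the phagolysosome, and *Hmox2* (-0.53) the constitutive heme oxygenase. The edgeR adjusted p-values of these 4 were 2.36e-04, 5.11e-04, 2.66e-04 and 0.00748. *Hmox1*, the inducible heme oxygenase that frees iron from heme, was at 986, 1031 and 1193 CPM in control and at 847, 1094 and 1089 CPM in optimized libraries. These overlapped, with a log2 fold change of -0.08 and an edgeR adjusted p-value of 0.683. *Lrp1*, an endocytic receptor for the heme-binding protein hemopexin, was higher (0.67, edgeR adjusted p-value 0.0390), although optimized library 2 and control library 1 met at 1599.6 CPM. This call was lost in 7 of 15 alternatives, and the log2 fold change was 0.39 without optimized library 1.

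Some of these rows share exon sequence with a gene on the other strand, and the strand setting of the counting is not given in the sources used here. *Hmox2* shares 6248 bases with *Cdip1*, which had 1246 to 1910 counts per library and a log2 fold change of -0.18 (edgeR adjusted p-value 0.120). How reads in the shared bases were assigned is not known. *Slc48a1* shares 2396 bases with *Hdac7*, which had 85 to 305 counts and was itself lower (log2 fold change -1.22).

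Genes of mitochondrial iron handling gave 2 higher and no lower calls among 9, beside 14.7% higher and 15.2% lower among all genes tested. *Slc25a37*, the mitochondrial iron importer mitoferrin-1, rose from 50.2, 44.7 and 44.4 CPM to 171, 107 and 125 CPM. Its log2 fold change was 1.53 (SE 0.16), with an edgeR adjusted p-value of 5.88e-05. The related importer *Slc25a28* had a log2 fold change of -0.31 (edgeR adjusted p-value 0.0874). *Fech*, which inserts iron into heme, was higher by 0.29 on the log2 scale (edgeR adjusted p-value 0.0248), a call lost in 10 of 15 alternatives. *Alas1*, the first enzyme of heme synthesis, had a log2 fold change of -0.12 (edgeR adjusted p-value 0.484).

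Transcription factors that act on iron and heme genes moved in both directions. *Nfe2l2*, whose product NRF2 activates ferritin, ferroportin and heme oxygenase genes, was at 314, 330.4 and 336 CPM in control and at 163, 163 and 174 CPM in optimized libraries (log2 fold change -0.97, edgeR adjusted p-value 1.21e-05). *Hif1a* (1.04) and *Epas1* (0.90), which encode the oxygen-regulated HIF-1α and HIF-2α, were higher, with edgeR adjusted p-values of 1.36e-05 and 4.58e-04. *Bach1*, a heme-sensing repressor, had a log2 fold change of -0.09 (edgeR adjusted p-value 0.658).

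Lipocalin-2, an iron-siderophore binding protein encoded by *Lcn2*, was called higher on the strength of 1 library. It had 29, 17 and 28 counts in control and 860, 35 and 19 counts in optimized libraries. The log2 fold change was 3.85 (SE 1.27, edgeR adjusted p-value 0.0461), and without optimized library 1 it was 0.29 with an adjusted p-value of 0.624. Genes of the hepcidin system were near or at 0: *Hamp*, hepcidin itself, had 1 count in all 6 libraries together, and *Hjv* and *Tmprss6* had none.

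**Figure D4:**
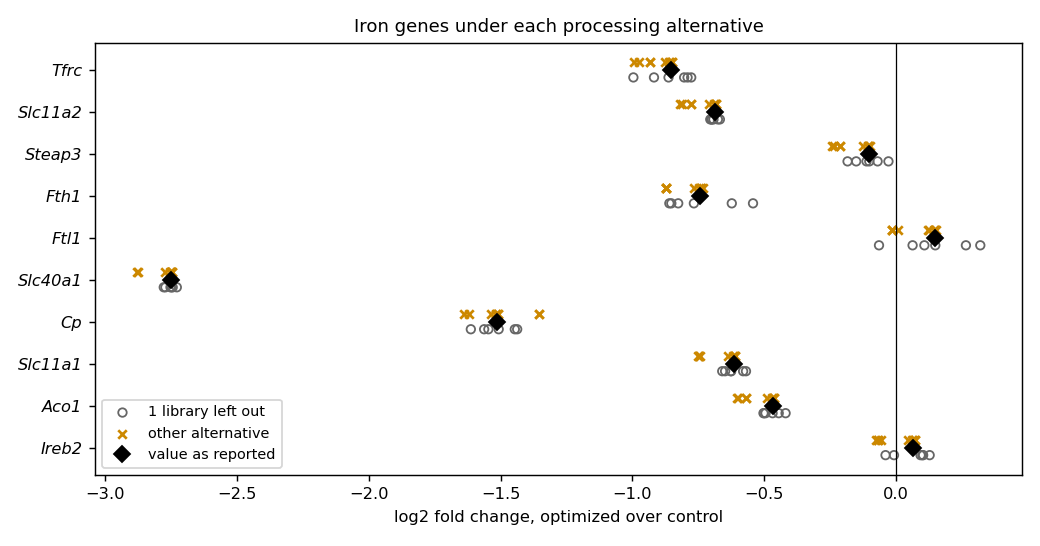
Log2 fold change, optimized over control, of the 10 iron genes as reported (diamonds), with 1 library left out (open circles) and under the other alternatives (crosses). The values of the 7 called genes stay left of 0, and those of *Ftl1* and *Ireb2* fall on both sides of it.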

How the data were processed

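Per the study's methods and the labels, paired-end reads were mapped to mm39 (GRCm39) with HISAT2 and counted with featureCounts in Galaxy. The authors deposited raw counts per gene, without normalization, and an FPKM table with the same rows and columns. The annotation, versions, strand setting and treatment of multiply mapped reads are not given in the sources used here. Over 9963 genes, each deposited FPKM value equalled the count over 1 factor per gene and 1 per library, within a relative deviation of 5.63e-09.

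Groups and replicate numbers came from the labels. The count test was edgeR 4.0.16 in R 4.3.3 (filterByExpr, TMM factors, glmQLFit and glmQLFTest, 3 control against 3 optimized libraries), with Benjamini-Hochberg adjustment over 14618 genes and a threshold of 0.05. CPM are TMM-scaled. The SE is the log2 fold change divided by the square root of F. Ratios of FPKM were compared on the log2 scale by a two-sided exact permutation test. As alternatives, scaling used RLE factors or library size alone, the filter was dropped or set to at least 10 counts per library, replicate number entered as a block, libraries were omitted in turn, and the test was DESeq2 1.42.0 or limma 3.58.1 on log2(FPKM + 1), with pseudocount 0.1 in place of 1, or restricted to a mean FPKM of at least 1. A pseudocount makes the log2 change of weakly expressed genes too small. The edgeR test with and without the replicate block, DESeq2 and limma on log2(FPKM + 1) were first tested on simulated counts. The permutation test, the stem-loop search and the other alternatives were not. Stem-loops were sought in GENCODE M39 transcripts on GRCm39.

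The members and gene lists were chosen with earlier results of these data known. All 10 members are named, and any of the 42 other iron and heme genes may be named, with all of them counted. No 2 libraries agreed within sampling noise.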

Additional observations from a re-analysis of the deposited data

How the results depend on the processing

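The 7 lower calls among the 10 iron genes kept their direction and passed the test under all 15 alternatives, and no member was higher under any. Over these alternatives *Slc40a1* lay between -2.88 and -2.73 on the log2 scale, *Cp* between -1.64 and -1.35, and *Fth1* between -0.87 and -0.54. Library size alone, without TMM factors, moved the median log2 fold change of all genes from 0.0079 to -0.12, and the share of higher among called genes from 49.1% to 32.3%. With limma on log2(FPKM + 1) that share was 31.1%, with the smaller pseudocount 31.3%, and with a mean FPKM of at least 1 28.4%, where 1176 genes were higher. Of the other iron and heme genes, 4 were higher under library size scaling and under each limma setting, and 11 (library size) or 10 (limma) were lower. The cause was not tested.

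Of the members that did not pass the test, *Ftl1* and *Ireb2* changed direction under some alternatives. *Steap3* kept its direction, between -0.24 and -0.028 on the log2 scale. *Ftl1* was at -0.014 under each limma setting and between -0.064 and 0.32 with 1 library left out. *Ireb2* was at -0.057 with library size alone, at -0.067 with limma on log2(FPKM + 1) with and without the minimum, at -0.075 with the smaller pseudocount, and between -0.039 and 0.13 with 1 library left out. The ratio of *Tfrc* to *Fth1* was between -0.39 and 0.056 with 1 library left out, above 0 without control library 2 (0.0088) or optimized library 2. For single genes of the wider list, alternatives were added after seeing the data. *Hfe* turned to -0.048 (library size), -0.061 (limma, with and without the minimum) and -0.066 (smaller pseudocount), and *Flvcr1* to -0.072, -0.080 and -0.087 likewise. With 1 library left out, *Bmp6* lay between -0.0046 and 0.56, *Hmox1* between -0.15 and 0.029, and *Nfs1* between -0.11 and 0.039. Of the calls in that list, all 6 lower and 4 of 7 higher were kept under every alternative, the exceptions being *Lcn2*, *Lrp1* and *Fech*. Of the 19 genes not called, 6 kept that status and their direction under every alternative. *Pcbp2* and *Slc25a28* were called lower in 4 alternatives each, *Fbxl5* in 5 and *Cisd2* in 6.

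Same-numbered libraries deviated together with correlations of 0.27, -0.012 and 0.18, and control libraries 2 and 3 did not correlate best with their own number. With 3 libraries a condition, these correlations cannot decide whether the numbers pair the samples. With the replicate number as a block, 2401 genes were higher and 2523 lower, 7 of the 10 iron genes were lower, and 7 of the other iron and heme genes were higher and 7 lower. The block left the ratios at -0.86, -0.13, -2.02 and -0.53, where the smallest p-value possible is 0.25. Adding the counts of processed ferritin copies was possible for *Ftl1* alone, with 1 count, and was not run for *Fth1*. With 3 libraries a condition the exact permutation test of a ratio could not go below 0.1, and genes with few counts, such as *Tfr2* and *Lcn2*, carry large errors.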

Other observations

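The 5′ stem-loop motif of the ferritin chains and ferroportin was found in 24 genes in all, of which 17 could be tested. *Fth1*, *Ftl1* and *Slc40a1*, already reported above, are among the 17, so the count is not independent of them. Of the 17 genes, 5 were lower under optimized conditions, none was higher and 12 did not pass the test (edgeR's quasi-likelihood test). Among all genes tested, 15.2% were lower. The lower genes beside *Slc40a1* and *Fth1* were *Aunip* (log2 fold change -1.48, adjusted p-value 0.00725), *Malt1* (-0.50, adjusted p-value 0.0203) and *Nasp* (-0.49, adjusted p-value 0.00803), named after their values were seen. Whether the motif folds or is bound in these other transcripts is not given by the letters.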
